A study of Mus musculus with 6 samples.

Results

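Macrophages and related myeloid cells carry a recognisable set of transcripts, and 32 of these genes are described here in RNA from isolated mouse pancreatic islets. They are 32 of the 34745 genes in the deposited expression table, and all 32 were found there by symbol. They cover the complement C1q chains, immune adaptors and surface receptors, lysosomal and pore-forming proteins, small membrane proteins, the phagocyte NADPH oxidase, cytoskeleton regulators, a transcription factor and secreted proteins. The set was selected on the FPKM values of all 6 libraries, as myeloid genes of which many read lower in the KO DNMT3A libraries, defined next, than in the others. For these genes that contrast is therefore described without a test, with results over all genes as background, and the test is read only for the remaining groups.

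The series holds 6 libraries in 3 groups of 2, all poly-A RNA of islets from C57BL/6 mice aged 8 weeks. The KO DNMT3A group is βRapKO islets given Dnmt3a, a DNA methyltransferase, by lentivirus. The KO group is βRapKO islets, in which beta cells lack Rptor, the gene of the mTORC1 subunit Raptor; KO DNMT3A islets share this deletion. The WT group is wild-type islets. GFP is part of the deposited names of the KO and WT libraries, and its meaning there is not stated. The promoter that drives the deletion, any control virus and whether replicates are different mice are not given in the sources used here. Any p-value therefore measures only how these libraries vary, and that variation may be technical.

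Tissue macrophages are phagocytes that live in nearly every organ and are kept alive by signals through the receptor CSF1R. In islets they are the main resident immune cell and lie close to blood vessels and beta cells. Their gene programme depends on the transcription factor PU.1, the product of Spi1. They take up dying cells and debris, digest them in lysosomes, release C1q, the recognition molecule of the classical complement pathway, and can produce superoxide through an oxidase complex.

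Values are the authors' FPKM, fragments scaled by gene length and by the size of the library. Steps between values of single-transcript genes imply 244749 to 1920369 fragments per library, with the fewest in WT replicate 1 and the most in KO DNMT3A replicate 1. At these depths a member's value rests on few fragments: the median member had 17 and 8 in KO DNMT3A, 27 and 12 in KO, and 8 and 16 in WT. Fragment numbers use the annotated length for C1qa, C1qb, Mpeg1, Cd53 and Ms4a4a. For the other resolved members they use the smallest single length at which all values give whole numbers. For many of these the length exceeds all annotated exons together (Apoe 5592 against 2138 bases), so their numbers may be too high. For others it is shorter (Tyrobp 564 against 667 bases). The libraries KO replicate 2 and WT replicate 1 stood apart, with 0.109% and 0.17% of summed FPKM in the insulin genes Ins1 and Ins2, against 16.5% to 30.5% in the other 4 libraries. They are called insulin-poor below. Both have deposited names that end in the number 3, as does KO DNMT3A replicate 2, and what the number stands for is not stated. Rptor was 0.714 and 1.93 FPKM under the label KO DNMT3A, 0.378 and 1.51 under KO, and 0.8 and 1.06 under WT. It was thus above both WT values in 1 KO library and 1 KO DNMT3A library. The deletion is in beta cells and the RNA is of whole islets, so these levels do not test the labels. Dnmt3a was 3.62 and 3.8 FPKM in KO DNMT3A, 3.19 and 2.5 in KO, and 2.94 and 4.43 in WT, which does not set the libraries labelled KO DNMT3A apart from WT. Groups are called by their labels throughout.

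Promoter sequences were read from RefSeq (GRCm38.p6) for the 24 of 32 members that matched its promoter table by symbol, in windows of 250 bases before to 50 bases after each RefSeq gene start. They are shown because the set includes Spi1, whose product PU.1 binds the core GAGGAAG. This core, searched on both strands, lay in the windows of 7 of the 24 members (29.2%), against 15.4% of the 27025 genes with a window. Among members lower in KO DNMT3A than in all other libraries, which are counted below, 4 of 15 held it (26.7%). The AP-1 motif TGANTCA was in 3 of 24 members (12.5%), against 8.97% of all genes, and TATAAA was in 4 of 24 (16.7%), against 15.7%. No member window had overlapping matches of different motifs (0 of 29 windows). A match is a description of letters and not of binding. The stretches below run 5′ to 3′ on the gene's strand, with capitals for the GAGGAAG core or its reverse complement. C1qb, a leading complement member, is given as a window with no match, and the others are the 7 members with a match. Mrc1 and Itgam each had 2 matches, of which 1 is shown.
C1qb, chr4:136886201-136886300, minus strand: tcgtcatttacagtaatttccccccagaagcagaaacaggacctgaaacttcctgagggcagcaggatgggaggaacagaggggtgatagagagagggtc
C1qc, chr4:136893055-136893154, minus strand: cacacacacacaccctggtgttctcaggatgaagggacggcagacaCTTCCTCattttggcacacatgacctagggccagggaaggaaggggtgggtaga
Laptm5, chr4:130913267-130913293, plus strand: cagcctgtggCTTCCTCttttttgttc
Cd53, chr3:106790126-106790152, minus strand: ctcagtctcaCTTCCTCactcttctcg
Ctss, chr3:95526775-95526801, plus strand: tgaaagttcaCTTCCTCattgtggatg
Pld4, chr12:112760654-112760680, plus strand: tcagaacaaaGAGGAAGtgaatggaag
Mrc1, chr2:14229314-14229413, plus strand: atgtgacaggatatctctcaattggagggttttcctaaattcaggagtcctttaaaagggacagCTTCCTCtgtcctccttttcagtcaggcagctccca
Itgam, chr7:128062510-128062609, plus strand: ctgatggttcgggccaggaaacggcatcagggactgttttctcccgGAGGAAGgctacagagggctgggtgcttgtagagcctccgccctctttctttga
The windows follow RefSeq starts, which for C1qc, Laptm5 and Mrc1 are not the starts of the GENCODE gene models used for positions elsewhere, and the Laptm5 stretch lies within a GENCODE exon. In Ctss, Cd53 and Pld4 the core covers or closely follows the start. The 7 genes did not share a pattern: C1qc, Laptm5, Cd53 and Pld4 were lower in both KO DNMT3A libraries than in the other 4, Ctss missed this narrowly, and Itgam and Mrc1 were near or at 0.

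Of the 32 genes, 18 were lower in both KO DNMT3A libraries than in each of the other 4 (56.3%). Of the 13233 genes that reached 1 FPKM or more in 2 or more libraries, 1.77% were, 234 genes, of which these 18 make up 7.69%. The choice of the genes used this contrast, so nothing is read from the count. The 18 were C1qb, C1qc, Tyrobp, Csf1r, Cx3cr1, Laptm5, Cd68, Lyz2, Mpeg1, Pld4, Cd53, Ms4a7, Ms4a6c, Cybb, Aif1, Adap2, Spi1 and Apoe. No member was higher in both KO DNMT3A libraries than in the other 4 (0 of 32, against 7.6% of all genes). With the insulin-poor libraries left out, 23 members were lower in both KO DNMT3A libraries than in KO replicate 1 and WT replicate 2. Of all genes 10.2% were, and leaving libraries out can only keep or raise such counts. In bulk islet RNA, fewer macrophages and less of these transcripts per macrophage cannot be told apart.

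The filter of 1 FPKM in 2 libraries kept 29 of the 32 members; Itgam, Ptprc and Mrc1 did not pass. Of the 29, 4, Adap2, Cx3cr1, Ncf1 and Ly86, passed with both KO DNMT3A libraries under 1 FPKM, so they passed only through the groups where they were higher. In all 6 libraries 23 members were above 0, and 9 were listed at 0 in at least 1 library.

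**Figure D1:**
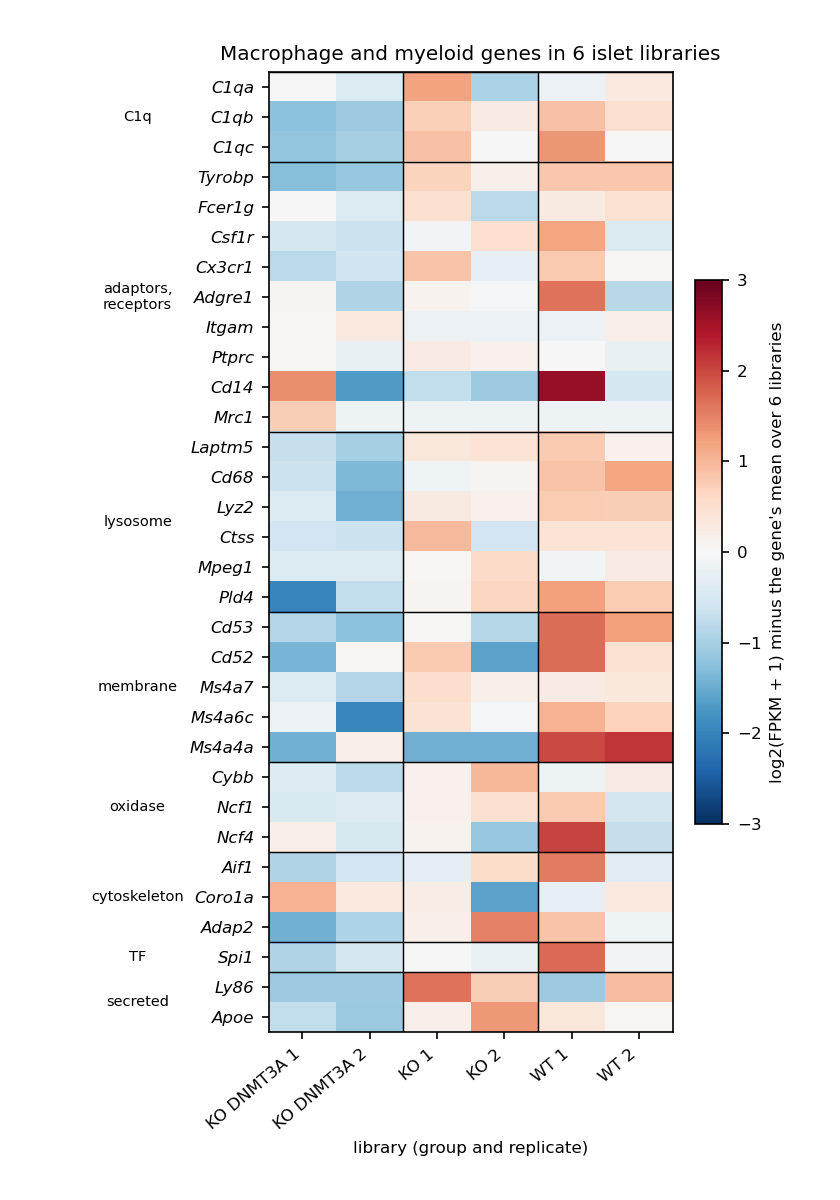
Heat map of the 32 members (rows, by role) in the 6 libraries (columns, KO DNMT3A, KO and WT from left to right), where colour is the log2 (FPKM + 1) deviation from the gene's mean over the 6 libraries. Members were most often among their 2 lowest libraries in KO DNMT3A, 22 and 26 of 32 members, against 3 and 8 in KO and 1 and 4 in WT.

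C1q is built from 3 chains, encoded side by side on chromosome 4 by C1qa (136895917 to 136898803), C1qb (136880129 to 136886187) and C1qc (136889804 to 136893065; mm10, minus strand). C1qb, the B chain, was 21.1 and 23 FPKM in KO DNMT3A, 83.1 and 60.1 in KO, and 93.9 and 70.8 in WT. All 4 other libraries had at least 2.61 times the value of the higher KO DNMT3A library. C1qb averaged 22 ± 1.39 FPKM in KO DNMT3A, 71.6 ± 16.3 in KO and 82.3 ± 16.3 in WT (SD, n = 2 each), and its log2 difference was -1.64 (SE 0.56) to KO and -1.84 (SE 0.56) to WT. The C chain gene C1qc was 3.88 and 4.58 FPKM in KO DNMT3A, 19.3 and 10.1 in KO, and 26.6 and 10.04 in WT. It had the same order, with KO and WT overlapping and a log2 difference of -1.53 (SE 0.64) to KO and -1.74 (SE 0.64) to WT.

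The A chain gene C1qa did not follow its neighbours. It was 63.1 and 46.5 FPKM in KO DNMT3A, 145.7 and 32.03 in KO, and 55 and 77.02 in WT. The lowest library was KO replicate 2 and the KO DNMT3A libraries lay inside the range of the others, so C1qa is outside the 18. The balance of the chains was read from fragments, since C1qa and C1qb have a single annotated transcript each and their FPKM convert to whole fragments. C1qa took 74.1% (126 of 170 fragments) and 65.9% (54 of 82) of the C1qa and C1qb fragments in KO DNMT3A, 62.6% (216 of 345) and 33.8% (26 of 77) in KO, and 35.9% (14 of 39) and 51% (78 of 153) in WT. The exact Clopper-Pearson 95% intervals were 66.9% to 80.5% and 54.6% to 75.97% in KO DNMT3A, 57.3% to 67.7% and 23.4% to 45.4% in KO, and 21.2% to 52.8% and 42.8% to 59.1% in WT. They cover counting error only. The share was lowest in the insulin-poor libraries, KO replicate 2 and WT replicate 1, and the part these libraries' other differences play was not tested. The share of C1qc in C1qc and C1qb fragments was 26.7% and 28.2% in KO DNMT3A. It was 31.4% and 25% in KO and 35.9% and 21.9% in WT, with intervals that overlap in all libraries. C1qc fragment numbers rest on a length of 2149 bases, against 1931 in its annotated exons, so this share may be too high.

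**Figure D2:**
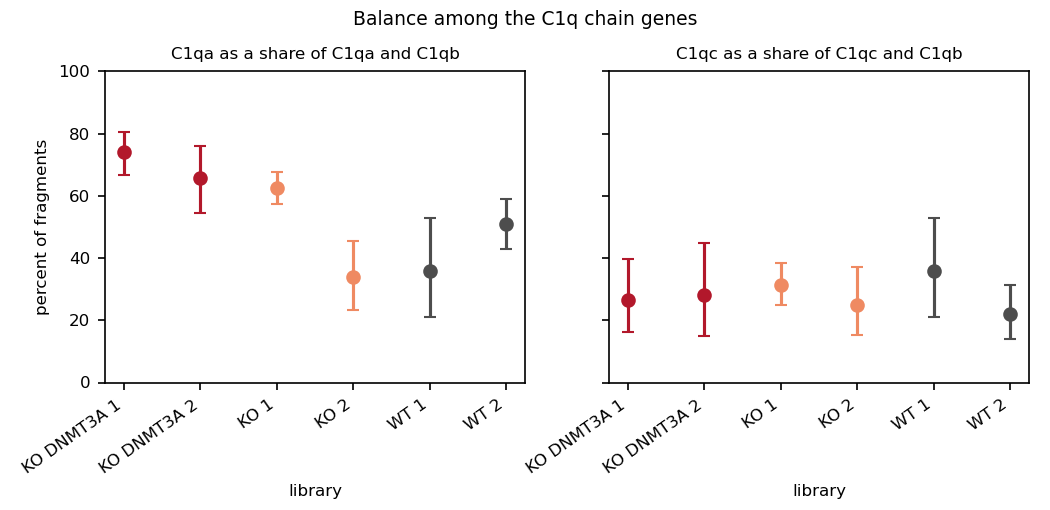
Share of C1qa fragments among C1qa and C1qb fragments (left) and of C1qc among C1qc and C1qb fragments (right), in percent, per library ordered KO DNMT3A, KO and WT, with exact Clopper-Pearson 95% intervals. The C1qa share is between 62.6% and 74.1% in the KO DNMT3A libraries and KO replicate 1, and between 33.8% and 51% in the other 3.

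Adaptors and receptors came next by role. Tyrobp, the DAP12 adaptor that passes signals from many myeloid receptors, was 12.9 and 14.3 FPKM in KO DNMT3A, 52.2 and 36.3 in KO, and 57.95 and 58.3 in WT. Its groups did not overlap, and the values rest on 14 and 9 fragments in KO DNMT3A, 42 and 16 in KO, and 8 and 32 in WT. The log2 difference was -1.61 (SE 0.54) to KO and -2.02 (SE 0.54) to WT. Fcer1g, the Fc receptor gamma chain that shares this signalling route, was 18.8 and 13.9 FPKM in KO DNMT3A, 26.7 and 10.4 in KO, and 22.9 and 26.2 in WT. Here KO replicate 2 was the lowest library. Fcer1g did not separate KO DNMT3A from KO, though both KO DNMT3A libraries were below both WT libraries. Csf1r, the receptor for the survival factor CSF1, was 1.42 and 1.22 FPKM in KO DNMT3A, 2.27 and 3.93 in KO, and 6.97 and 1.58 in WT, a narrow gap at the low end. Cx3cr1, the fractalkine receptor, was 0.302 and 0.52 FPKM in KO DNMT3A (4 fragments in each library), 3.16 and 0.93 in KO, and 2.97 and 1.34 in WT.

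Other surface genes did not set both KO DNMT3A libraries apart from the other 4. Adgre1, which encodes F4/80, the classical mouse macrophage antigen, was 2.45 and 0.744 FPKM in KO DNMT3A, 2.53 and 2.13 in KO, and 9.05 and 0.854 in WT, where the WT libraries differed most. Ptprc, the pan-leukocyte phosphatase CD45, was 0.464 and 0.232 FPKM in KO DNMT3A, 0.703 and 0.57 in KO, and 0.455 and 0.229 in WT, so KO DNMT3A and WT were at about the same level. Itgam, the CD11b integrin chain, was 0.144 and 0.372 FPKM in KO DNMT3A, listed at 0 in both KO libraries, and 0 and 0.285 in WT, which gave no order. Mrc1, the mannose receptor, was 0.84 FPKM in KO DNMT3A replicate 1 and listed at 0 in the other 5 libraries. Cd14, the lipopolysaccharide co-receptor, was 36.8 and 3.42 FPKM in KO DNMT3A, 7.58 and 5.71 in KO, and 85.8 and 9.15 in WT. It was high in KO DNMT3A replicate 1 and WT replicate 1. These libraries also had the most of Spp1 (453 and 1510 FPKM there, 48.9 to 110.7 FPKM in the other 4) and Mmp7 (87.3 and 639 FPKM there, 2.63 to 4.81 FPKM in the other 4). Both are on the duct cell list, though expression of Spp1 in other cells was not examined. The whole list of 12 duct genes summed to 1664 and 423 FPKM in KO DNMT3A, 571 and 340 in KO, and 2878 and 459.5 in WT, also highest in those 2 libraries. Not every duct gene followed: the keratin gene Krt18 was 307 and 175.8 FPKM in KO DNMT3A, 218.9 and 188.5 in KO, and 192.6 and 162.1 in WT. The part of duct genes in the Cd14 level was not tested.

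Of the 6 lysosomal and pore-forming genes, 5 were among the 18. Lyz2, the secreted and lysosomal lysozyme of myeloid cells and the member at the highest level, was 105.3 and 50.2 FPKM in KO DNMT3A, 168.9 and 153.8 in KO, and 238.8 and 234.4 in WT. The 3 groups did not overlap in any pair. Lyz2 averaged 77.7 ± 39 FPKM in KO DNMT3A, 161.4 ± 10.7 in KO and 236.6 ± 3.1 in WT (SD, n = 2 each), with a log2 difference of -1.14 (SE 0.61) to KO and -1.69 (SE 0.61) to WT. Its near-copy Lyz1 was listed at 0 in all 6 libraries. Cd68, a lysosomal glycoprotein used as a macrophage marker, was 6.3 and 3.46 FPKM in KO DNMT3A, 9.5 and 11.2 in KO, and 19.8 and 24.8 in WT. It gave the same order of groups, with no overlap. Laptm5, a lysosomal membrane protein of leukocytes, was 2.83 and 2.11 FPKM in KO DNMT3A, 6.73 and 7.19 in KO, and 9.61 and 5.76 in WT, with KO and WT overlapping.

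Ctss, the lysosomal protease cathepsin S, was 12.2 and 11.5 FPKM in KO DNMT3A, 37.1 and 12.1 in KO, and 25.01 and 25.1 in WT. KO replicate 2 lay at the KO DNMT3A level. Mpeg1, which encodes the pore-forming perforin-2, was 2.04 and 2.06 FPKM in KO DNMT3A, 3.24 and 5.02 in KO, and 2.83 and 3.79 in WT. Pld4, an endolysosomal nuclease, was listed at 0 and at 1.36 FPKM in KO DNMT3A, 3.19 and 5.18 in KO, and 8.26 and 5.71 in WT. The 0 in KO DNMT3A replicate 1 allows up to 0.79 FPKM, the value of 3 fragments there, which is under all 4 KO and WT values.

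Among small membrane proteins, the tetraspanin gene Cd53 was 3.59 and 2.57 FPKM in KO DNMT3A, 7.65 and 3.68 in KO, and 25.8 and 18.9 in WT. The WT libraries stood above both other groups, and KO replicate 2 had 1.03 times the value of the higher KO DNMT3A library. The GPI-anchored Cd52 was 3.35 and 10.9 FPKM in KO DNMT3A, 18.5 and 2.75 in KO, and 35.02 and 14.7 in WT, with KO and KO DNMT3A overlapping. The MS4A genes encode 4-span membrane proteins and lie together on chromosome 19. Ms4a7 was 2.44 and 1.45 FPKM in KO DNMT3A, 5.55 and 4.15 in KO, and 4.41 and 4.62 in WT. Ms4a6c was 2.47 FPKM and listed at 0 in KO DNMT3A, 4.24 and 2.76 in KO, and 7.05 and 5.32 in WT. Both were lower in KO DNMT3A than in each other library. Ms4a4a differed: it was listed at 0 and at 2.14 FPKM in KO DNMT3A, at 0 in both KO libraries, and at 9.77 and 11.1 in WT. Its highest value outside WT rests on 2 fragments, and the WT values on 2 and 9.

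The phagocyte oxidase makes superoxide from NADPH. Cybb, its membrane subunit gp91phox, was 2.07 and 1.28 FPKM in KO DNMT3A, 3.35 and 6.93 in KO, and 2.6 and 3.76 in WT. The KO DNMT3A libraries were lowest and KO overlapped WT. Ncf1, the cytosolic organiser subunit p47phox, was 0.696 and 0.797 FPKM in KO DNMT3A, 1.56 and 2.28 in KO, and 3.03 and 0.61 in WT, where WT replicate 2 was the lowest library. Ncf4, the cytosolic p40phox, was 1.5 and 0.573 FPKM in KO DNMT3A, 1.35 FPKM and listed at 0 in KO, and 7.85 and 0.329 in WT, which gave no order.

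Of the cytoskeleton regulators, Aif1, the actin-binding Iba1 used to stain macrophages, was 4.06 and 5.3 FPKM in KO DNMT3A, 6.78 and 12.8 in KO, and 26.8 and 6.41 in WT. Adap2, an Arf GTPase-activating protein, was listed at 0 and at 0.43 FPKM in KO DNMT3A, 2.02 and 6.77 in KO, and 3.92 and 1.48 in WT. Both were lowest in KO DNMT3A, Adap2 on 0 and 1 fragments there. Coro1a, the leukocyte coronin, ran the other way against KO, at 5.33 and 2.77 FPKM in KO DNMT3A, 2.57 FPKM and listed at 0 in KO, and 1.58 and 2.78 in WT.

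Spi1, which encodes PU.1, was 0.788 and 1.35 FPKM in KO DNMT3A (5 fragments in each library), 2.33 and 1.94 in KO, and 9.89 and 2.18 in WT. It was lowest in KO DNMT3A, and WT replicate 1, the shallowest library, held the high value. Apoe, the lipid carrier that macrophages secrete and other islet cells can make too, was 9.96 and 7.36 FPKM in KO DNMT3A, 19.2 and 43.8 in KO, and 21.9 and 18 in WT. Ly86, the MD-1 partner of a Toll-like receptor relative, was listed at 0 FPKM in both KO DNMT3A libraries, at 5.63 and 2.57 in KO, and at 0 and 3.09 in WT. A count of 0 allows up to 1.57 and 2.69 FPKM in KO DNMT3A and 12.3 in WT replicate 1, so Ly86 could not be compared across all libraries.

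The threshold between the 18 and the rest is fine-grained. Just inside it lay Csf1r, whose lowest other library was 1.11 times the higher KO DNMT3A library, and Cd53 at 1.03 times. Just outside lay Ctss at 0.996 times and Ncf1 at 0.765 times. The widest gap was that of Adap2, 3.44 times on few fragments, followed by C1qb at 2.61 times and Tyrobp at 2.55 times. With a margin of 1.5 times instead of any gap, 10 members met the rule.

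As a sum over the 31 members whose FPKM convert to whole fragments, the myeloid transcripts made up 569 and 378 fragments per 1000000 in KO DNMT3A, 1064 and 938 in KO, and 1459 and 1029 in WT. The 95% Poisson intervals were 536 to 604 and 343 to 416 in KO DNMT3A, 1011 to 1119 and 871 to 1008 in KO, and 1311 to 1618 and 966 to 1095 in WT. Lyz2 had the most fragments of any member in each library but KO replicate 2, where Apoe had 191 against 152 for Lyz2. Without Lyz2 the sum was 436 and 315 in KO DNMT3A, 849.9 and 743 in KO, and 1156 and 732 in WT. Apoe, whose fragment numbers may be too high, stays in both sums. Both KO DNMT3A libraries held fewer of these fragments than any other library by either sum. The highest value was in WT replicate 1, the shallowest library. The members were selected on the contrast of KO DNMT3A with the others, so nothing is read from this order or from the gaps between intervals. The intervals cover counting error only and take the fragment numbers as exact, though some of these may be too high.

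**Figure D3:**
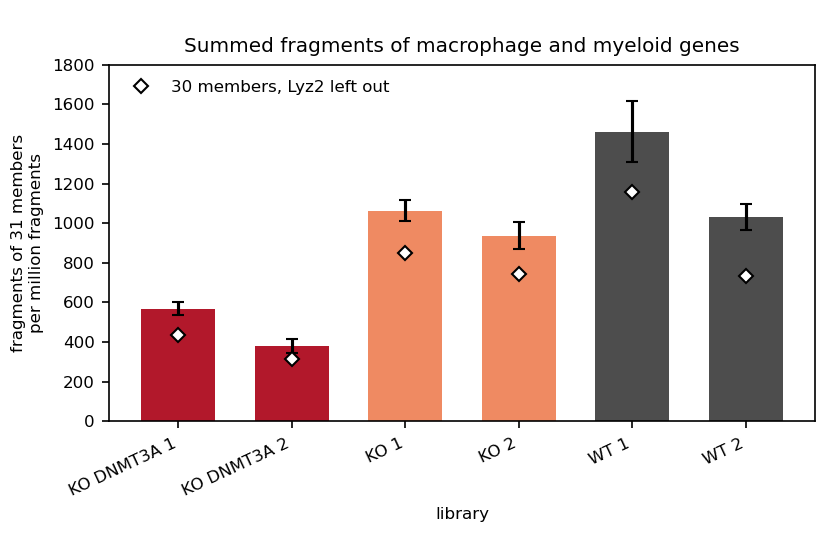
Summed fragments of the 31 members with recovered fragment numbers, per 1000000 inferred fragments, per library ordered KO DNMT3A, KO and WT; error bars are exact 95% Poisson intervals for counting error only. Diamonds give the sum without Lyz2. The KO DNMT3A libraries are lowest, at 569 and 378 fragments, a contrast on which the members were selected.

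Over all 32 members, the median log2 difference was -0.80 for KO DNMT3A minus KO and -1.12 for KO DNMT3A minus WT, against 0.19 and 0.23 over all 13233 genes. These comparisons share the KO DNMT3A libraries. Scaling the libraries to equal medians moved the all-gene medians to -0.01 and 0.03 and the members' medians to -1.0 and -1.32. Since the members were selected on this contrast, nothing is read from these medians. Of the 32 members, 21 were lower in both KO DNMT3A libraries than in both KO libraries (5.43% of all genes were) and 22 lower than in both WT libraries (7.87% of all genes). No gene of the 13233 passed the limma test in either comparison (adjusted p under 0.05, 0% called; 147 and 379 genes with an unadjusted p under 0.05).

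KO and WT were compared with a test, since the choice of genes did not rest on that contrast. No member passed it: 0 of the 29 tested members had a limma adjusted p under 0.05, as had 0 of 13233 genes (0% called; 240 genes with an unadjusted p under 0.05). Of the members, 8 were lower in both KO libraries than in both WT libraries, 25% against 10.5% of all genes, namely Tyrobp, Cd68, Lyz2, Pld4, Cd53, Ms4a6c, Cd14 and Ms4a4a. Ptprc was the 1 member higher in both, against 9.36% of all genes. The median over the 32 members was -0.22 and over all genes 0.03.

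The members with the lowest KO minus WT differences were Ms4a4a, Cd14, Cd53, Cd52 and Ncf4. Ms4a4a differed by -3.51 on the log2 scale (SE 0.65, limma unadjusted p = 0.00072, adjusted p = 1), a value that depends on the pseudocount because both KO libraries are listed at 0. Of KO and WT, only WT, where Ms4a4a was higher, brought it past the filter, so nothing is read from its unadjusted p. Its 3-fragment limits in KO were 2.52 and 4.6 FPKM, both under the WT values of 9.77 and 11.1 FPKM. Those WT values rest on 2 and 9 fragments. The value in WT replicate 1 is itself under the 3-fragment value there, 14.7 FPKM, so the size of the gap is not settled. Cd53 averaged 5.66 ± 2.81 FPKM in libraries of KO and 22.3 ± 4.9 in WT (SD, n = 2 each), a log2 difference of -1.86 (SE 0.56, limma unadjusted p = 0.011, adjusted p = 1). These 2 were the only members with an unadjusted p under 0.05. Cd14 differed by -1.97 (SE 1.23), Cd52 by -1.47 (SE 0.92) and Ncf4 by -1.16 (SE 0.93), none with an unadjusted p under 0.05. Of the 4 KO and WT libraries, WT replicate 1 held the high value of Cd14 and Ncf4, and without it the differences were -0.42 for Cd14 and 0.21 for Ncf4. That of Cd52 was -0.28 without KO replicate 2 and -2.67 without KO replicate 1. The highest fitted differences were those of Ly86 at 1.27 (SE 0.75), Apoe at 0.53 (SE 0.61), Cybb at 0.50 (SE 0.56), Adap2 at 0.47 (SE 0.67) and Ptprc at 0.29. The first 4 did not pass (limma adjusted p = 1 for each), and Ptprc was too low to be tested. The direction for Ly86 is not settled, since its 0 in WT replicate 1 allows more than either KO value. Without each library in turn, its difference ran from 0.25 to 2.28 and that of Cybb from 0.07 to 0.94.

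**Figure D4:**
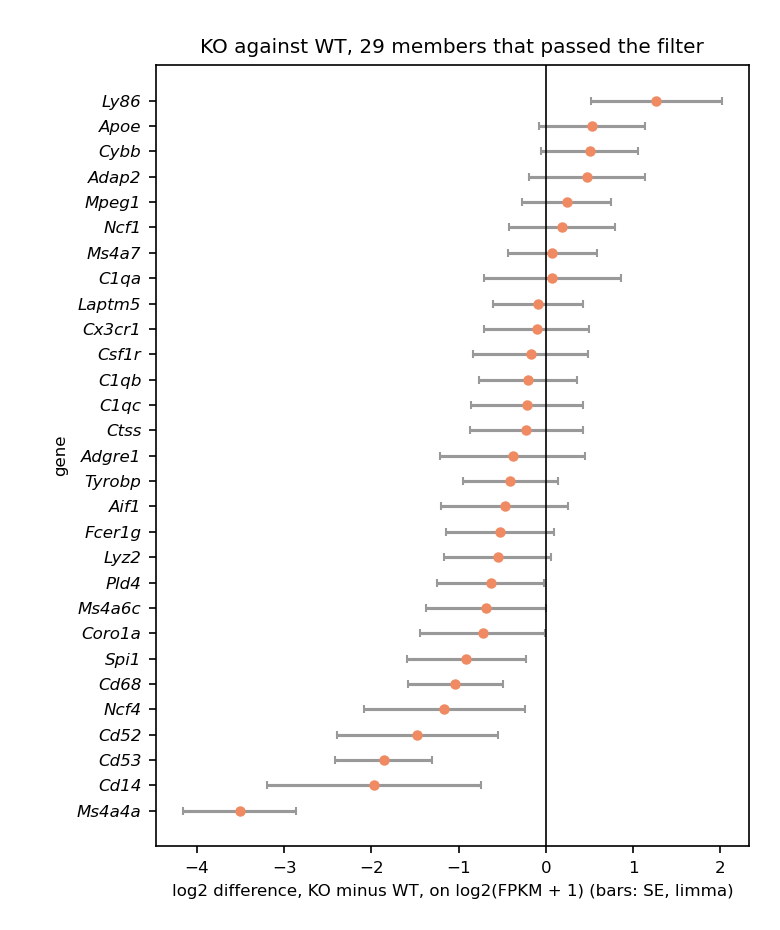
Log2 difference of KO minus WT for the 29 members that passed the filter, with the standard error as a bar, on the log2 (FPKM + 1) scale. The members lie on both sides of 0, from -3.51 for Ms4a4a to 1.27 for Ly86 (0.25 without WT replicate 1, where Ly86 is listed at 0), and 2 members had an unadjusted limma p under 0.05.

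Other genes of the same pathways came from wider lists. Of 123 further myeloid pathway genes in the table, 83 reached 1 FPKM or more in 2 or more libraries. Of the 123, 7 were lower in both KO DNMT3A libraries than in each other library (5.69%, against 1.77% of all genes tested), and all 7 were among the 83. A further 2 were higher in both, 1 of them among the 83, against 7.6% of all genes tested. The median log2 differences over the 123 were -0.07 to KO and -0.24 to WT, and no difference from the members was tested. The oxidase genes held 2 of the 7. Rac1, a small GTPase of the oxidase that most cells express, was 5.05 and 1.96 FPKM in KO DNMT3A, 16.4 and 15.4 in KO, and 18.5 and 11.9 in WT. Its blood-cell relative Rac2 was 1.89 and 2.65 FPKM in KO DNMT3A, 5.08 and 3.38 in KO, and 8.07 and 2.71 in WT. Cyba, the oxidase's p22phox, was 55 and 12.98 FPKM in KO DNMT3A, 38.9 and 28.7 in KO, and 113.2 and 59.6 in WT. KO DNMT3A overlapped KO, and both groups lay below WT. The chemokine gene Ccl2, which draws monocytes in, was 4.09 and 10.8 FPKM in KO DNMT3A, 13.2 and 26.9 in KO, and 29.96 and 15.06 in WT. The other 4 were Clec7a, Slc11a1, Cyth4 and Ms4a6d, which were named after their values were seen.

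In the other 4 pathway lists, of 13 further complement genes, 18 further adaptor pathway genes, 12 further transcription factor genes and 8 ligand and growth factor receptor genes, 0 genes were lower in both KO DNMT3A libraries than in the other 4, where the share over all genes was 1.77%. Csf1, the ligand of CSF1R, was instead higher in KO DNMT3A, at 6.55 and 3.04 FPKM, against 2.73 and 0.805 in KO and 2.57 and 2.84 in WT. Cebpb, a transcription factor gene of macrophages that other cells also express, was 9 and 18.4 FPKM in KO DNMT3A, 2.8 and 17.9 in KO, and 27.2 and 6.83 in WT, which gave no order. The cathepsin genes Ctsb and Ctsd, whose lysosomal proteases occur in most cells, were 210 and 80.8 FPKM and 118.2 and 54.3 FPKM in KO DNMT3A, where replicate 1 lay within and replicate 2 below the range of the other 4 libraries. Ctsl, another cathepsin gene, ran otherwise, at 262 and 68.1 FPKM in KO DNMT3A, 212 and 33.8 in KO, and 108 and 149 in WT.

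Many markers of other blood cells were listed at 0. Of 13 T and NK cell genes, 10 were listed at 0 in all 6 libraries, as were 5 of 9 B and plasma cell genes, 7 of 9 mast cell genes, 7 of 12 neutrophil genes and all 5 red blood cell genes. Low values in this table need not mean absence: Gapdh, a glycolytic gene that all cells use and that was named after its values were seen, was 0.743 to 3.79 FPKM. Of the 13233 genes tested, the KO DNMT3A mean was above the KO mean for 9022 and above the WT mean for 8571. A higher mean in KO DNMT3A therefore does not by itself set a gene list apart. Of 8 monocyte genes 4 were listed at 0 in all libraries, among them Ly6c2, Ccr2 and Chil3. The other 4 had a higher mean in KO DNMT3A than in KO, but against WT 2 were higher and 2 lower. Of 9 tissue macrophage genes 4 were listed at 0 in all libraries, Cd163, F13a1, Timd4 and Cbr2. The other 5, Mrc1 included, had a higher mean in KO DNMT3A than in KO, and 4 of these 5 also than in WT. Selenop, a secreted selenium carrier and the highest of them, was 42.1 and 15.8 FPKM in KO DNMT3A, 41.9 and 12 in KO, and 12.5 and 37.8 in WT, so the groups overlapped. The macrophage genes Adgre1, Csf1r, Cd68 and the C1q chains were above 0 in all 6 libraries. Adgre1 rested on 3 fragments in KO DNMT3A replicate 2 and in WT replicate 2. Not every member was above 0 throughout: 9 were listed at 0 somewhere, among them Itgam in 3 libraries and Mrc1 in 5. Cd74, the invariant chain of MHC class II that dendritic cells and macrophages use, was 9.88 and 9.38 FPKM in KO DNMT3A, 30.5 and 11.5 in KO, and 8.16 and 24.6 in WT, higher in the insulin-rich KO and WT libraries than in all others. The dendritic cell and MHC class II list summed to 20.6 and 20.8 FPKM in KO DNMT3A, 53.6 and 17.7 in KO, and 8.16 and 38.6 in WT.

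Lists of non-blood cells were read in the same way. Of 12 stellate and fibroblast genes, 3 were lower in both KO DNMT3A libraries than in the other 4 (25%, against 1.77% of all genes tested). These were Lum, Fn1 and Mgp, named because they met the rule. Over the whole list, 8 genes had a lower mean in KO DNMT3A than in KO and 4 a higher one. Against WT, 11 were lower and 1 was higher. The list summed to 560 and 281 FPKM in KO DNMT3A, 556 and 652 in KO, and 1578 and 432 in WT. The sum in KO DNMT3A replicate 1 thus lay within the range of the KO and WT libraries. By the same rule 0 of 10 endothelial, 0 of 12 duct and 0 of 10 beta cell genes were lower. The endothelial list summed to 25.7 and 20.9 FPKM in KO DNMT3A, 47.5 and 22.3 in KO, and 45.2 and 20.2 in WT. The part of these cell types in the levels of the macrophage genes was not tested.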

How the data were processed

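The authors deposited gene-level FPKM, as the file headers state. The submitters' processing notes name mm10, edgeR, StringTie 1.3.0 and HISAT2 2.0.4, without roles; TruSeq poly-A libraries and RNeasy Micro RNA are named per the labels' protocols. Library strand is not given in the sources used here, so 8 members whose exons overlap another gene (Csf1r, Cx3cr1, Itgam, Cd52, Ms4a6c, Ncf1, Coro1a and Adap2) may hold its fragments. Gene positions are from GENCODE M21.

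Values were transformed as log2(FPKM + 1). The 13233 genes reaching 1 FPKM or more in 2 or more libraries entered 1 limma 3.58.1 fit of all 6 libraries (R 4.3.3; trended, robust empirical Bayes; two-sided; Benjamini-Hochberg at 0.05). Log2 differences of Itgam, Ptprc and Mrc1 are differences of group means. Depth was inferred from single-transcript genes, of whose values up to 20 fragments 84.4% to 91.7% were whole multiples within 0.01. Members' fragment numbers (tolerance 0.02; Mrc1 not resolved) use the annotated length, or the smallest length giving whole numbers, which can exceed the annotated exons.

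Members, lists and alternatives were chosen with earlier results of these data known. Named are all members and up to 3 genes of each list by mean FPKM; others were chosen after their values were seen. Replicate numbers were not treated as pairs. Alternatives were a pseudocount of 0.1, no filter or a 5 FPKM filter, quantile and median scaling, rescaling without dominant transcripts, a replicate block, fits without trend or of only the groups compared, each library left out, and both insulin-poor libraries left out. Intervals came from scipy 1.17.1, figures from matplotlib 3.10.9, and tables from pandas 2.3.3 and numpy 2.4.6 under Python 3.11.15.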

Additional observations from a re-analysis of the deposited data

How the results depend on the processing

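The limma test called 0 genes in each comparison under every alternative run. The count of 18 members was 20 with quantile normalization (over 29 members) and with median scaling, 17 after rescaling and 10 with a margin of 1.5 times. It was 18 to 21 when each library was left out in turn, but leaving a library out cannot lower this count. The median over the members, KO DNMT3A minus KO, was -1.14 with quantile normalization, -1.06 with a pseudocount of 0.1, and -0.98 to -0.74 without each library. KO DNMT3A minus WT was -1.38, -1.39, and -1.74 to -0.90. KO minus WT was 0.079 without both insulin-poor libraries and -0.54 to -0.0011 without each library. Leaving out both insulin-poor libraries turned Cd52 (0.32), Ncf4 (0.82) and Cybb (-0.13) round in KO against WT. Without single libraries the KO minus WT range crossed 0 for Ncf4 (-2.53 to 0.21), Apoe (-0.048 to 1.10) and Adap2 (-0.21 to 1.15, and -0.02 without WT replicate 2), and the cause was not tested.

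Same-numbered replicates shared deviations between KO DNMT3A and KO (correlation 0.318) and between KO DNMT3A and WT (0.101), not between KO and WT (-0.269), so the numbers do not pair libraries. With the replicate block 0 genes were called (unadjusted p under 0.05: 154 for KO DNMT3A against KO, 391 for KO DNMT3A against WT and 285 for KO against WT). A crossed replicate block by deposited library number, chosen after seeing the data, also called 0. With 2 libraries a group and few fragments per member, a difference that misses the threshold does not show equal levels.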
